A study of Drosophila melanogaster with 24 samples.

Results

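The sexes of adult Drosophila melanogaster were compared in whole bodies of w1118, the control strain of a study of the lol (Lobe-less) mutant. The comparison used the 3 arrays labelled w1118 female whole body and the 3 labelled w1118 male whole body, of 24 arrays in the series, over the 13873 transcripts with values on all 24 arrays. Flies grew at 23 °C and were collected as adults of day 2, then frozen. Total RNA of 100 flies of one sex went into each extraction, and the labels describe the 3 samples of a sex as separate cultures. Both groups carry the w1118 genotype, a mutation of the white gene that is a usual laboratory background, and received no treatment. Arrays of lol female and male whole bodies (3 and 3) and of w1118 female and male heads (3 and 3), from flies of the same age and rearing, served for comparison.

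Sex in Drosophila is set in each cell by a cascade of RNA splicing that ends in sex-specific forms of transcription factors. The adult female body holds ovaries with large amounts of germ line, nurse cells and follicle cells, and its fat body makes yolk proteins. The adult male body holds testes, which express many genes that are silent elsewhere, and accessory glands that make seminal fluid proteins. A whole-body extract therefore mixes organs that only one sex has with organs that both share. In such bulk RNA, fewer cells of a type and less RNA per cell cannot be told apart.

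Values were log2 intensities per transcript, on which 1 unit is a 2-fold difference, and differences are given as female minus male. A transcript was called when its adjusted p was under 0.05 (limma, Benjamini-Hochberg over 13873 transcripts). Transcripts are identified by FlyBase transcript IDs, and a gene name was found for only 43 of them. None of 262 marker symbols in 14 lists, for ovary, testis, accessory gland, muscle, fat body, gut, head and other functions, could be matched to a measured ID, so neither the sex nor the tissue labels could be checked against known markers. Replicate arrays correlated at 0.978 to 0.983 in females and at 0.974 to 0.987 in males over the 13873 transcripts, and transcripts are no independent replicates. The median SD over 3 arrays was 0.182 log2 in females and 0.208 log2 in males.

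Female and male bodies differed in 6290 transcripts, 45.3% of those tested. More transcripts were higher in females (4142, 29.9%) than in males (2148, 15.5%), but the differences were of unlike size. The median difference was 0.76 log2 (1.7-fold) over the 4142 transcripts higher in females and -3.07 log2 (8.42-fold) over the 2148 higher in males. Under 1 log2 lay 2944 of those higher in females, with a median of 0.64 log2, and 363 of those higher in males, with a median of -0.59 log2. At 1 log2 or more, 1198 transcripts (8.64%) were higher in females and 1785 (12.9%) in males.

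At each minimum size from 1 log2 upward, more transcripts were higher in males than in females on the deposited scale. Between 1 and 2 log2, however, 1018 were higher in females and 346 in males. Quantile normalizing again reversed the order at 1 log2 or more, with 1939 higher in females and 1717 in males. At 2 log2 or more, 180 transcripts (1.3%) were higher in females and 1439 (10.4%) in males. At 4 log2 or more, the counts were 36 (0.259%) and 679 (4.89%), and at 5 log2 or more 13 (0.0937%) and 192 (1.38%). At the far end, beyond 6 log2, 3 transcripts (0.0216%) were higher in females and 5 (0.036%) in males. Thus the female side was a broad shoulder of small differences with a thin tail, whereas the male side was a plateau that ran from about 1 to 5 log2.

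**Figure D1:**
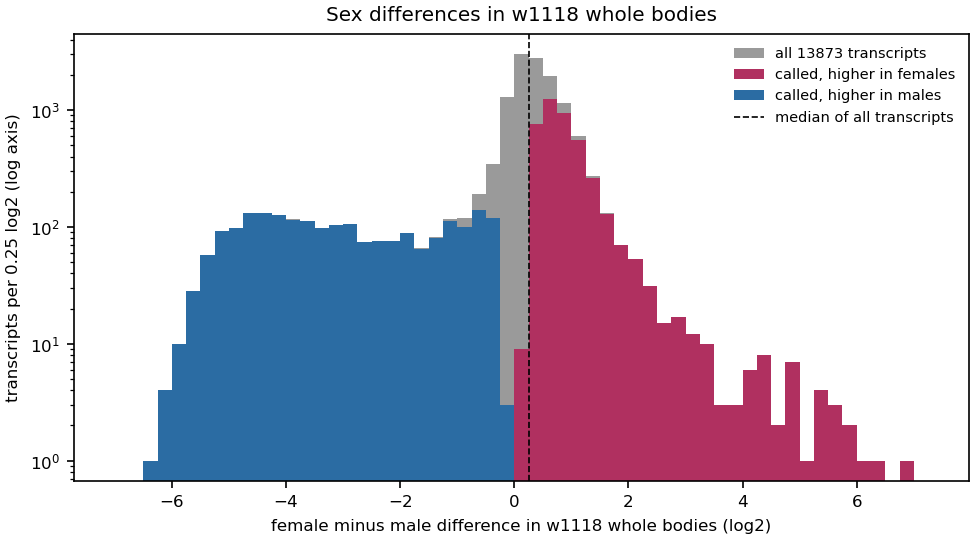
Number of transcripts (log axis) by the female minus male difference in w1118 whole bodies (log2, bins of 0.25), with called transcripts in colour. Called male-biased transcripts form a plateau on the left, and called female-biased ones a shoulder next to 0 with a tail on the right; the dashed line marks the median of all transcripts at 0.26.

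The count of female-biased calls changed with the scaling of the arrays. The median over all 13873 transcripts was 0.26 log2 above 0, and 73.1% of all transcripts lay above 0. When each array was centred on its most common difference from the average array, the median fell by 0.23 log2. The counts were then 1945 higher in females and 2553 higher in males, so that 43.2% of calls were higher in females, against 65.9% with the deposited scale. Counts at 2 log2 or more moved less, to 129 higher in females and 1523 in males. Centring on the array medians or quantile normalizing again left the median at 0.26 or 0.27 log2. These gave 4066 and 4735 transcripts higher in females.

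Separation of the arrays gave a like picture. All 3 female arrays lay above all 3 male arrays in 5322 transcripts (38.4%) and below them in 2311 (16.7%), together 55% of all transcripts. No overlap was seen in 174 of the 180 transcripts higher in females by 2 log2 or more. All 1439 transcripts higher in males by 2 log2 or more were free of overlap. Transcripts picked for a called difference of that size were bound to overlap rarely. With 3 arrays a sex, an exact two-sided permutation test of a single transcript cannot go below p = 0.1, so calls rest on the fit across transcripts.

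Strong bias mostly meant a transcript near the bottom of the scale in one sex. The 1439 male-biased transcripts of 2 log2 or more had a median level of 8.64 in females and 12.72 in males. In females, 1216 of them (84.5%) lay among the lowest 25% of that sex's levels, at or below 9.87. The 180 female-biased transcripts of 2 log2 or more had a median level of 11.52 in females and 8.56 in males, and 163 of them (90.6%) lay among the lowest 25% of male levels, at or below 10.29. A large difference requires a low level on one side, so these shares describe the classes and are no separate result.

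**Figure D2:**
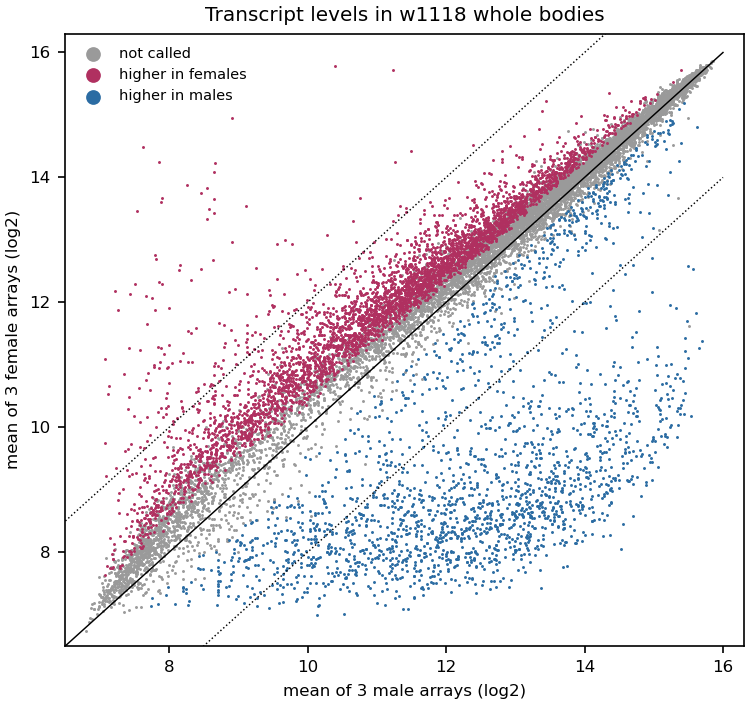
Mean of the 3 female arrays (vertical) against the mean of the 3 male arrays (horizontal) for each of 13873 transcripts in w1118 whole bodies, both log2. The solid line marks equal levels and the dotted lines 2 log2. Male-biased transcripts of 2 log2 or more lie mostly at low female levels (median 8.64) and high male levels (median 12.72), with 3.89% among the lowest 25% of male levels. Most female-biased ones lie just above the line of equal levels.

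Transcripts of low and middle mean level over all 24 arrays carried most of the bias. They were split into 4 equal groups by that mean, which takes in heads and both sexes. A transcript high only in the bodies of a single sex thus tends to fall into a lower group by construction. In male bodies, the 1439 male-biased transcripts of 2 log2 or more had a median of 12.72, beside 12.2 for all transcripts. In female bodies, the 180 female-biased ones had a median of 11.52, beside 12.21. In the lowest group, with means up to 10.03, 835 transcripts were higher in females and 1092 in males. In the group above it, 1599 were higher in females (46.1%) and 693 in males (20%). These lower groups held most of the differences that reached 2 log2, with 176 of 180 female-biased and 1396 of 1439 male-biased transcripts. In the highest group, with means from 13.47, 434 transcripts were higher in females and 160 in males, and 90% of differences lay between -0.3 and 0.5 log2. Among the 703 transcripts with a mean over 15, near the upper end of the values, 19 (2.7%) were called.

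The most female-biased transcripts were FBtr0081954 and FBtr0077804, neither of which has a gene name in the reference table. FBtr0081954 stood at 14.89, 14.07 and 14.52 on the 3 female arrays and at 7.94, 7.53 and 7.40 on the 3 male arrays. The difference was 6.87 ± 0.39 (SE) log2, or 117-fold (adjusted p = 6.14e-10). FBtr0077804 stood at 14.37, 14.24 and 14.12 in females and at 7.53, 7.35 and 8.66 in males, a difference of 6.40 ± 0.37 (SE) log2 (adjusted p = 6.14e-10). Both were thus among the high levels of the female array and close to the lowest values of the male array, with no overlap.

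The most male-biased were FBtr0085944 and FBtr0079624, likewise without a name. FBtr0085944 stood at 7.23, 8.49 and 8.44 in females and at 14.65, 14.23 and 14.71 in males, a difference of -6.48 ± 1.03 (SE) log2, or 89-fold (adjusted p = 4.27e-05). FBtr0079624 stood at 8.20, 9.48 and 8.04 in females and at 14.82, 14.31 and 14.96 in males, a difference of -6.12 ± 1.04 (SE) log2 (adjusted p = 8.35e-05). The sexes were separated by more than 4 log2 in each. Their SEs were larger than those of the female-biased pair. The fit pools the spread of all 8 groups, and both transcripts varied by over 4 log2 between w1118 male head arrays (11.44, 12.23 and 7.57 for FBtr0085944).

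Transcripts with known gene names were few. The reference table of Drosophila genes (Release 6) listed 43 measured IDs among its synonyms, 16 for 1 gene each and 27 for several genes that share the transcript, which cannot be assigned to one of them. They were picked by whether a name could be found, and 33 of them lay above the median level of all transcripts. Of the 43, 18 were higher in females, 2 higher in males and 23 did not pass. The share called, 46.5%, was close to the 45.3% of all transcripts. By direction, 41.9% were higher in females and 4.65% in males, beside 29.9% and 15.5% of all transcripts. Their median difference was 0.28 log2, beside 0.26 for all transcripts. Among the 6935 transcripts above the median level, 24.6% were higher in females and 5.23% in males, with a median of 0.19 log2. The named set, which is not a random draw, thus held few male-biased calls, as did transcripts above the median level. When arrays were centred on the most common difference, 6 of the 18 kept their call (Rad1 and Sws1, Polr3K and Tcs1, moi and Tgs1, Wdr24, fend and HDAC3).

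**Figure D3:**
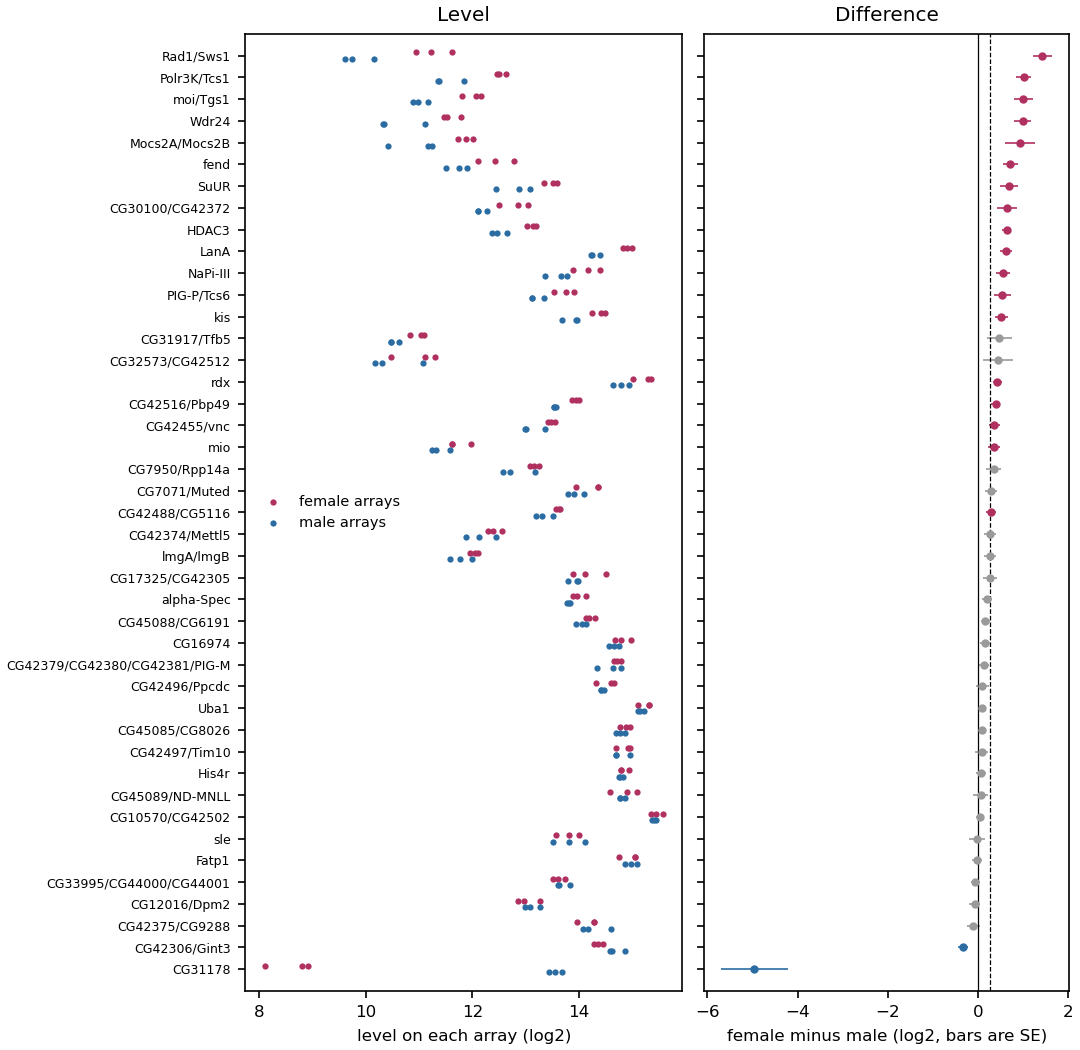
The 43 transcripts with gene names: left, level on each of 3 female and 3 male w1118 whole body arrays (log2); right, female minus male difference with its SE (log2), coloured where called. Of the 43, 18 were called higher in females and 2 in males; the dashed line marks the median of all transcripts at 0.26.

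The named transcripts are described by function, in small groups made after the values were seen; of all transcripts, 29.9% were higher in females and 15.5% in males, and no group was tested against them. Of 11 transcripts for DNA repair, chromatin, transcription and RNA processing, 7 were higher in females, 4 did not pass and none was higher in males. Their median difference was 0.51 log2, beside 0.26 for all transcripts. Rad1, part of the checkpoint clamp that marks damaged DNA, shares a transcript with Sws1. This transcript stood at 10.94, 11.23 and 11.61 in females and at 9.75, 10.15 and 9.61 in males, a difference of 1.42 ± 0.22 (SE) log2 (adjusted p = 2.82e-05). The sexes did not overlap, and 96.8% of all transcripts had a difference at or below this one.

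The transcript listed for moi, a telomere-capping protein, and Tgs1, which trimethylates the caps of small RNAs, stood at 12.08, 11.80 and 12.17 in females and at 10.98, 10.89 and 11.17 in males. It was higher in females by 1.00 ± 0.22 (SE) log2 (adjusted p = 0.000881). That of Polr3K, a small subunit of RNA polymerase III, and Tcs1 stood at 12.47, 12.63 and 12.50 in females and at 11.36, 11.84 and 11.37 in males, higher in females by 1.01 ± 0.17 (SE) log2 (adjusted p = 7.58e-05). Each of these was about 2-fold higher in females, without overlap.

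Chromatin genes with a transcript of their own differed less. HDAC3, a histone deacetylase, stood at 13.04, 13.14 and 13.19 in females and at 12.36, 12.46 and 12.65 in males, higher in females by 0.63 ± 0.10 (SE) log2 (adjusted p = 6.6e-05). SuUR, a suppressor of DNA replication in heterochromatin, stood at 13.52, 13.35 and 13.59 in females and at 12.89, 12.44 and 13.08 in males. Its difference was 0.68 ± 0.19 (SE) log2 (adjusted p = 0.00732). Neither gene overlapped between the sexes. SuUR did not pass without w1118 male replicate 2 (0.50 log2, adjusted p = 0.0502) or with centring on the most common difference (0.45 log2, adjusted p = 0.065).

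The chromatin remodeller kis was higher in females by 0.51 ± 0.14 (SE) log2 (adjusted p = 0.00667). Its arrays stood at 14.41, 14.25 and 14.49 in females and at 13.97, 13.95 and 13.69 in males. Centring on the most common difference ended this call (0.29 log2, adjusted p = 0.14), so the call depended on the scaling. The transcript of Pbp49, a subunit of the complex that starts small nuclear RNA genes, and CG42516 was higher in females by 0.39 log2 (adjusted p = 0.00388). His4r, a histone H4 gene outside the histone cluster, stood at 14.85 ± 0.09 in females and 14.79 ± 0.03 in males (SD, n = 3 each) and did not pass (0.06 log2, adjusted p = 0.711). The transcripts of Tfb5, Rpp14a and Mettl5, each shared with a further gene, had differences of 0.47, 0.35 and 0.27 log2 and did not pass. Tfb5 passed with the 6 arrays alone (adjusted p = 0.0265) and with quantile normalization again (0.0307). Rpp14a and Mettl5 passed without male replicate 2 (0.0165 and 0.0152) and with array weights (0.00172 and 0.00015).

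Both named members of the GATOR2 complex, which activates TORC1 signalling when amino acids are at hand, were higher in females. Wdr24 stood at 11.46, 11.52 and 11.78 in females and at 10.35, 11.12 and 10.32 in males, a difference of 0.99 ± 0.19 (SE) log2 (adjusted p = 0.000279). The gene mio (missing oocyte), needed for a lasting oocyte fate, stood at 11.63, 11.62 and 11.98 in females and at 11.32, 11.59 and 11.25 in males, a difference of 0.35 ± 0.14 (SE) log2 (adjusted p = 0.045). Wdr24 was well separated, whereas the lowest female value of mio lay only just above the highest male value. The call of mio was lost in 7 alternatives, among them the fit to the 6 arrays alone (adjusted p = 0.121) and the centring on the most common difference (0.12 log2, adjusted p = 0.52).

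Among genes of the extracellular matrix, membrane skeleton and transport, 2 of 5 transcripts were higher in females, beside 29.9% of all transcripts. LanA, the alpha chain of laminin in basement membranes, stood at 14.84, 14.90 and 14.99 in females and at 14.40, 14.22 and 14.25 in males, a difference of 0.62 ± 0.14 (SE) log2 (adjusted p = 0.000948). NaPi-III, of a phosphate transporter family, was higher in females by 0.55 ± 0.15 (SE) log2 (adjusted p = 0.00526). Both missed the threshold when arrays were centred on the most common difference (adjusted p = 0.0582 for LanA and 0.126 for NaPi-III). The membrane skeleton protein alpha-Spec (0.19 log2) and the fatty acid transporter Fatp1 (-0.02 log2) did not pass, nor did the transcript of Muted, of an organelle biogenesis complex, and CG7071 (0.28 log2), which passed without female replicate 3 (adjusted p = 0.0166) and with array weights (0.00247).

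Of the ubiquitin and protein modification genes, rdx, an adaptor of a cullin ubiquitin ligase, stood at 15.31, 15.02 and 15.35 in females and at 14.94, 14.65 and 14.80 in males, higher in females by 0.43 ± 0.11 (SE) log2 (adjusted p = 0.00332). The transcript of vnc, a subunit of an N-terminal acetyltransferase, and CG42455 was higher in females by 0.36 ± 0.12 (SE) log2 (adjusted p = 0.0257). Uba1, the enzyme that activates ubiquitin, did not pass at 0.09 log2 (adjusted p = 0.403), nor did the transcript of lmgA, a subunit of the anaphase-promoting complex, and lmgB at 0.26 log2 (adjusted p = 0.108). That of lmgA and lmgB passed with array weights, quantile normalization again, the replicate block and without male replicate 2 (adjusted p between 0.000229 and 0.0477). The call of vnc was lost with the body arrays alone (adjusted p = 0.0533) and without 4 of the 6 arrays in turn, and that of rdx with the 6 arrays alone (adjusted p = 0.0553). The 2 calls were lost with centring on the most common difference, at adjusted p = 0.177 for rdx and 0.516 for vnc.

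Genes of neural development parted. The gene fend stood at 12.42, 12.10 and 12.78 in female bodies and at 11.75, 11.91 and 11.51 in male bodies, higher in females by 0.71 ± 0.16 (SE) log2 (adjusted p = 0.0014). The gene sle (slender lobes), named for its mushroom body phenotype, stood at 13.81, 13.58 and 14.01 in females and at 13.81, 13.52 and 14.11 in males. These ranges overlapped, and the difference was -0.01 ± 0.18 (SE) log2 (adjusted p = 0.953).

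Transcripts for mitochondrial and small-molecule synthesis genes mostly stood close together in the sexes. That of Mocs2A and Mocs2B, which encode subunits of molybdopterin synthase, was higher in females by 0.93 ± 0.33 (SE) log2 (adjusted p = 0.0281), and it lost its call without female replicate 1 or 2 or male replicate 2 (adjusted p between 0.0625 and 0.14). Those of ND-MNLL, of respiratory complex I, Tim10, of mitochondrial protein import, and Ppcdc, of coenzyme A synthesis, each shared with a further gene, differed by 0.05, 0.08 and 0.09 log2 and did not pass. Of 3 transcripts for glycolipid anchors and dolichol sugars, that of PIG-P and Tcs6 passed (0.54 log2, adjusted p = 0.0258, but between 0.0638 and 0.102 without female replicate 1 or 2 or male replicate 1 or 2) and those of PIG-M (0.12 log2) and Dpm2 (-0.07 log2) did not.

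Among 12 transcripts of genes for which no role is given here, 2 were higher in females: that of CG30100 and CG42372 (0.63 log2, adjusted p = 0.0255) and that of CG42488 and CG5116 (0.28 log2, adjusted p = 0.049). The first lost its call without female replicate 1 or 2 or male replicate 1 or 2 (adjusted p between 0.0627 and 0.108), and the second in 10 alternatives. A further 8 did not pass. Of these, the transcript of CG33995, CG44000 and CG44001 (-0.07 log2) was lower in females with centring on the most common difference (-0.29 log2, adjusted p = 0.0412). Those of CG17325 and CG42305 (0.26 log2) and of CG32573 and CG42512 (0.44 log2) passed with array weights (adjusted p = 0.00236 and 0.0175).

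Of the 43 named transcripts, 2 (4.65%) were higher in males, beside 15.5% of all transcripts, and both were in that group of 12. CG31178 stood at 8.11, 8.91 and 8.80 in females and at 13.56, 13.45 and 13.68 in males, a difference of -4.96 ± 0.74 (SE) log2, or 31.1-fold (adjusted p = 1.97e-05). The transcript of Gint3 and CG42306 stood at 14.28, 14.36 and 14.45 in females and at 14.63, 14.59 and 14.87 in males, a difference of -0.33 ± 0.11 (SE) log2 (adjusted p = 0.0202). CG31178 lay on the male plateau, near the bottom of the scale in females, whereas Gint3 was abundant in both sexes. The call of Gint3 was lost with the 6 arrays alone (adjusted p = 0.0901) and without female replicate 1 or male replicate 3 (adjusted p = 0.0746 and 0.109).

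The strongly female-biased transcripts varied more between female arrays than the female-biased ones did as a whole. Over all 4142 transcripts higher in females, the median SD over the 3 female arrays was 0.179 log2, close to that of all transcripts. Over the 180 transcripts of 2 log2 or more, the median SD was 0.486 log2 over the 3 female arrays and 0.242 over the 3 male arrays, beside 0.182 and 0.208 over all transcripts. Over the 36 transcripts of 4 log2 or more, it was 0.683 in females and 0.275 in males. The median level of these 36 was 13.63, 11.94 and 13.58 on the female arrays and 8.01, 8.11 and 7.92 on the male arrays, so that female replicate 2 stood below the other two. Replicate 2 was also the lowest for the 180, at 11.68, 10.98 and 11.98 in females. Without female replicate 2, 213 transcripts were higher in females by 2 log2 or more, and without replicate 3 there were 144.

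The male-biased transcripts did not show such a spread between male arrays. Over the 1439 of 2 log2 or more, the median SD was 0.286 log2 in females and 0.249 in males. Their median level was 8.50, 8.68 and 8.72 on the female arrays and 12.65, 12.62 and 12.93 on the male arrays. In lol bodies, whose arrays did not enter the choice of the classes, the median SD of the 180 was 0.299 log2 in females and 0.237 in males, beside 0.164 and 0.183 over all transcripts.

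The male-biased set recurred in lol bodies, which share no array with the w1118 bodies, though the fit pools the spread of all groups. Of the 2148 transcripts higher in w1118 males, 2022 (94.1%) were also called higher in lol males, where 16.1% of all transcripts were. Of the 4142 higher in w1118 females, 3402 (82.1%) were called higher in lol females, where 43.4% of all transcripts were. With the 6 lol arrays fitted alone, 93.4% of the male-biased and 83.3% of the female-biased were called, against 16.2% and 44.3% of all transcripts. In lol, 59.5% of all transcripts were called. Of 5429 transcripts called in both strains, 5 were called in opposite directions.

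Large differences recurred unequally. Of the 1439 transcripts higher in w1118 males by 2 log2 or more, 1412 also reached that size in lol, which is 98.1% of the w1118 list and 91.7% of the lol list of 1540 (11.1% of all transcripts). Of the 180 higher in w1118 females by 2 log2 or more, 60 did, which is 33.3% of the w1118 list and 51.7% of the lol list of 116 (0.836% of all transcripts). Over the 1439 transcripts, the median difference was -3.91 log2 in w1118 bodies and -4.44 in lol bodies. Over the 180, it was 2.57 log2 in w1118 bodies and 1.65 in lol bodies. Lists chosen on w1118 values tend to be less extreme in other arrays, and no test of these medians was made.

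**Figure D4:**
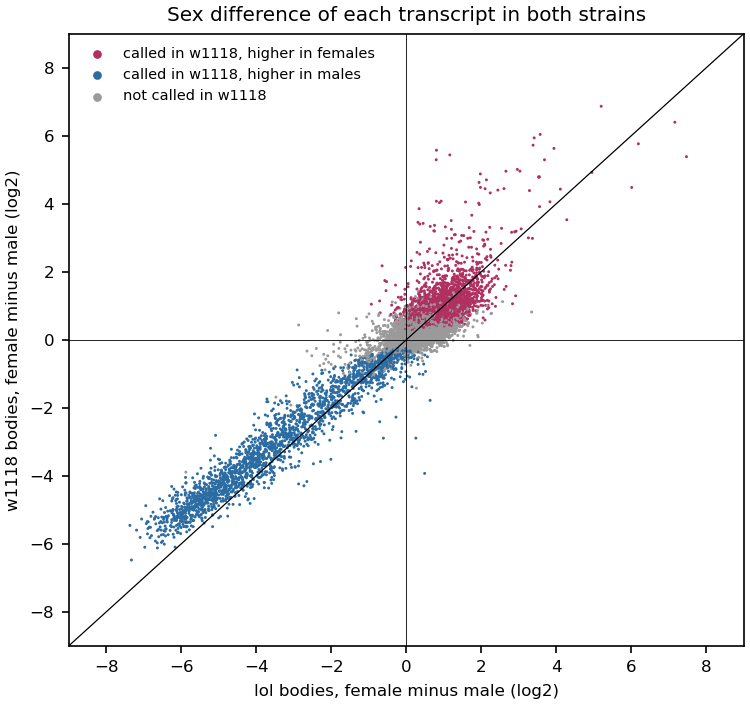
Female minus male difference of each transcript in w1118 whole bodies (vertical) and in lol whole bodies (horizontal), both log2, coloured by the call in w1118. The diagonal marks equal differences. The 2148 male-biased transcripts had a median of -3.07 log2 in w1118 and -3.52 in lol, thus larger differences in lol. Many of the 180 strongly female-biased ones lie above the diagonal, with smaller differences in lol.

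The difference between the strains was tested for each transcript as the sex difference in w1118 minus that in lol. It passed for 35 transcripts (0.252%), 25 positive (0.18%) and 10 negative (0.0721%), while 1643 had an unadjusted p under 0.05. With quantile normalization applied again, 23 were positive and 28 negative. Of the 35, 11 belonged to the 180 female-biased transcripts of 2 log2 or more, which are 1.3% of all transcripts. These 180 were chosen by the w1118 difference that enters this test, so an excess of them is built in and is no separate result. The count of 35 became between 10 and 21 without any one of 10 body arrays, 119 without w1118 female replicate 2 and 70 without w1118 male replicate 3. None of the 43 named transcripts passed, and 6 had an unadjusted p under 0.05. The one furthest from 0 among these 6, sle, had a difference of -0.01 log2 in w1118 and -0.84 in lol (adjusted p of the difference between strains = 0.202).

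The extremes of this test were transcripts that stood out in 1 sex of 1 strain. FBtr0077977 stood at 8.01, 8.39 and 8.68 in w1118 females and at 12.33, 12.11 and 12.43 in w1118 males, against 8.53, 8.31 and 8.10 in lol females and 7.85, 7.60 and 8.03 in lol males. Its difference between strains was -4.42 ± 0.47 (SE) log2 (adjusted p = 0.000117). FBtr0086596 ran the other way, since it stood at 8.11, 7.90 and 7.87 in w1118 males and at 12.20, 11.89 and 12.12 in lol males, with a difference between strains of 3.30 ± 0.25 (SE) log2 (adjusted p = 1.09e-06). Among bodies, one transcript was thus high in w1118 males alone and the other in lol males alone. FBtr0085034 differed by -3.15 ± 0.48 (SE) log2 (adjusted p = 0.00548) and among bodies was high in w1118 males alone, at 10.18, 10.50 and 11.12. FBtr0076984 differed by 3.15 ± 0.55 (SE) log2 (adjusted p = 0.0204). It stood at 12.19, 10.52 and 12.91 in w1118 females and at 9.55, 9.04 and 9.05 in lol females, with male body arrays of both strains at 8.57 or below. Its call was lost with the body arrays fitted alone and without any one of 6 body arrays (adjusted p between 0.0514 and 0.0796).

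Few transcripts were called between the sexes in heads of the same strain. In w1118 heads, 12 transcripts were called between females and males (0.0865%), 6 in each direction (0.0432%). Of all 13873 transcripts, 1605 (11.6%) had an unadjusted p under 0.05, 592 higher in females and 1013 higher in males. None of the 180 female-biased body transcripts was called in heads (25 had an unadjusted p under 0.05 and were higher in females), and 1 of the 1439 male-biased was (727 had an unadjusted p under 0.05 and were higher in males). The head arrays were not alike, however. Those of w1118 males correlated at 0.912 to 0.97, with a median SD of 0.255 log2, beside 0.177 in w1118 female heads. Such a spread limits the calls, so few calls do not show that differences were absent. The median level of the 1439 male-biased transcripts was 8.60, 8.50 and 8.43 on female heads and 9.88, 10.67 and 8.41 on male heads. Male head replicates 1 and 2 thus stood above every other w1118 head array for transcripts of male bodies, and the part that body material plays in this was not tested. The median difference of the 1439 in heads was -0.95 log2 with all arrays and 0.10 with male head replicate 3 as the sole male array.

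**Figure D5:**
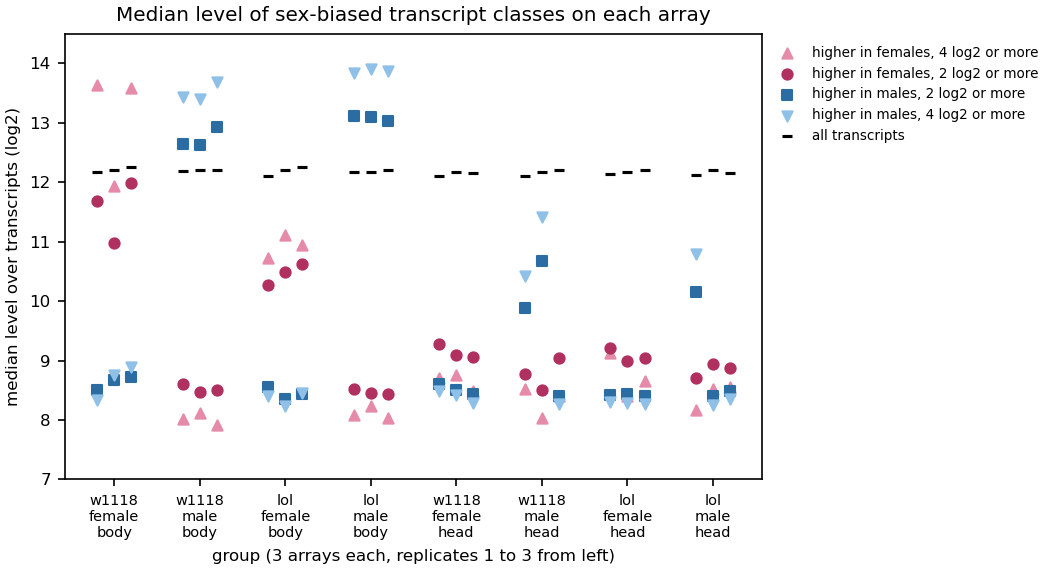
Median level (log2) on each of the 24 arrays of transcripts chosen by their sex difference in w1118 whole bodies, and of all transcripts. Male-biased classes are high in male bodies of both strains and on 3 single male head arrays; female-biased classes are high in female bodies, lower on w1118 replicate 2 and in lol, and near 8 to 9.3 in male bodies and in heads of both sexes.

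The sex difference was then compared between body and head of w1118 as a difference of differences. It passed for 3009 transcripts (21.7%), 1387 (10%) higher and 1622 (11.7%) lower in the body contrast. Centring on the most common difference gave 677 and 1777. Since it uses the w1118 body arrays, the strongest body differences are bound to appear in it. Without male head replicates 1 and 2, 3351 passed, 2522 of them among the 3009. That fit has a single male head array and takes its spread from the remaining groups. FBtr0077804 stood at 7.26, 7.07 and 7.45 in female heads and at 7.95, 7.23 and 7.65 in male heads, and its body difference exceeded that in heads by 6.75 ± 0.52 (SE) log2 (adjusted p = 2.46e-07). FBtr0081954 exceeded it by 6.51 ± 0.56 (SE) log2 (adjusted p = 4.17e-07).

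On the male side, FBtr0080270 stood at 8.11, 8.15 and 8.13 in female bodies and at 13.46, 13.17 and 14.03 in male bodies. In heads it stood between those levels in both sexes, at 9.96, 10.07 and 10.99 in females and 10.96, 11.17 and 10.77 in males. The body difference minus that in heads was -4.80 ± 0.42 (SE) log2 (adjusted p = 6.05e-07). For FBtr0089608 it was -4.48 ± 0.74 (SE) log2 (adjusted p = 0.000256).

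Of the 43 named transcripts, 7 differed in this way, beside 21.7% of all transcripts. None was called between the sexes in heads, where 0.0865% of all transcripts were. An unadjusted p under 0.05 (limma) in heads was seen for 1 of the 43, beside 11.6% of all transcripts. The transcript of Rad1 and Sws1 stood at 11.01, 11.21 and 11.14 in female heads and at 10.95, 10.91 and 11.43 in male heads, so that both head groups lay near the female bodies. Its body difference exceeded that in heads by 1.40 ± 0.31 (SE) log2 (adjusted p = 0.00273). HDAC3 stood at 12.88, 13.06 and 13.06 in female heads and at 13.03, 13.02 and 13.01 in male heads, and its body difference was larger by 0.65 ± 0.15 (SE) log2 (adjusted p = 0.00355). For both, male bodies were the lowest of the 4 w1118 groups.

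Wdr24 (0.97 log2, adjusted p = 0.0127), the transcript of Polr3K and Tcs1 (0.78, adjusted p = 0.0254), fend (0.72, adjusted p = 0.0297) and the transcript of vnc and CG42455 (0.51, adjusted p = 0.0449) also had larger differences in bodies. Centring on the most common difference ended these 4 calls (adjusted p = 0.0581 for Wdr24, 0.125 for Polr3K, 0.131 for fend and 0.334 for vnc), and those of Polr3K, fend and vnc were also lost when single arrays were left out. Without male head replicates 1 and 2, Rad1 and Sws1, HDAC3, and Polr3K and Tcs1 passed, whereas Wdr24, fend and vnc did not (adjusted p = 0.0943, 0.165 and 0.207). In that fit, with its single male head array, the value was 1.18 log2 for moi and Tgs1, 0.93 for PIG-P and Tcs6, 0.65 for LanA and 1.51 for Mocs2A and Mocs2B. With all arrays these were not called (limma, adjusted p between 0.0978 and 0.259), and other alternatives were not examined for them. CG31178 stood at 7.69, 8.86 and 8.55 in female heads and at 10.25, 11.56 and 7.69 in male heads, the order of the male-biased set. Its difference of differences was -3.49 ± 1.04 (SE) log2 (adjusted p = 0.021), and it was -5.63 without the 2 male head arrays (adjusted p = 0.000233). The call was lost without female head replicate 2, male head replicate 3 or female body replicate 1 (adjusted p between 0.0503 and 0.0516).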

How the data were processed

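RNA was hybridised to NimbleGen arrays with 1 dye (Cy3), whose design holds 16637 transcripts with 8 probes each, per the labels. The authors deposited log2 values per transcript made with RMA, per the submitters' processing notes. The sources used here give neither its version nor the set of arrays it was run on. That the scale is log2 follows from the range, 6.61 to 15.92. Of 15595 transcripts, 1722 lacked values and were left out.

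A limma fit (version 3.58.1, R 4.3.3) of 8 group means to all 24 arrays gave moderated tests (lmFit, contrasts, eBayes) with Benjamini-Hochberg adjustment over 13873 transcripts. Array number, rather than any count of reads, limits precision. Tested on simulated data for the sexes in w1118 bodies, it called 8 of 50 transcripts changed by 0.5 log2. It called 30 of 50 changed by 1 log2 and 48 of 50 by 2 log2, with 11 false calls among the unchanged transcripts. The simulation had normal noise, and its changed transcripts were a far smaller share than the 45.3% called in the data. Adjustment is stricter with fewer changed transcripts, so these rates do not carry over to this comparison.

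Comparisons, lists and members were chosen with earlier results of these data known. Text names cover transcripts that the reference table pairs with 1 gene and, by ID, the 2 highest and 2 lowest called differences per comparison, in the first one without overlap of the sexes. The rule also allowed IDs per level class, which are not printed. The 27 IDs paired with several genes and the grouping by function were added after their values were seen. Alternatives covered the variance prior (trend and robust), fewer arrays in the fit, 3 scalings, array weights, removal of the 25% of transcripts with the lowest mean, a replicate block and single arrays left out. A fit of lol bodies alone was chosen after seeing the data. Sequences were not used here.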

Additional observations from a re-analysis of the deposited data

Results flagged for a closer look

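Some sex differences of w1118 bodies differed from those of another group by a test of the difference itself. Against lol bodies, the difference (female minus male, w1118 minus lol) was 3.30 log2 for FBtr0086596, 3.15 for FBtr0076984, -4.42 for FBtr0077977 and -3.15 for FBtr0085034 (limma, adjusted p between 1.09e-06 and 0.0204). Against heads of w1118, it was 6.75 log2 for FBtr0077804, 6.51 for FBtr0081954, -4.80 for FBtr0080270 and -4.48 for FBtr0089608. Among transcripts with gene names, it was 1.40 for Rad1 and Sws1, 0.97 for Wdr24, 0.78 for Polr3K and Tcs1, 0.72 for fend, 0.65 for HDAC3, 0.51 for vnc and CG42455, and -3.49 for CG31178, against heads. The male head arrays behind these values stood apart from each other in transcripts of male bodies, as given in the results.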

How the results depend on the processing

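The male-biased counts at 2 log2 or more and the total of 6290 calls moved by under 1.5 times with an intensity trend and robust prior, the 12 body arrays, the 6 arrays alone, median centring, quantile normalization again, centring on the most common difference, the replicate block and each array left out (5434 to 5980 calls). Centring on the most common difference gave 1945 higher in females, 645 of them by 1 log2 or more. Quantile normalization again gave 1939 higher in females by 1 log2 or more and 1717 in males, the reverse of the order on the deposited scale. Array weights, which gave male replicate 1 a weight of 22, yielded 6381 higher in females. Dropping the lowest 25% of transcripts by level, where many biased transcripts lie, left 1059 higher in males, 747 of them by 1 log2 or more and 595 by 2, and in females 716 by 1 log2 or more and 49 by 2. The same filter left 9 differences between strains and 1654 between body and head. The count of 35 between strains became 1318 with array weights and between 10 and 119 with 1 array left out. The cause of these shifts was not tested.

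Same-numbered female and male arrays were not alike throughout. Their deviations correlated at 0.368, -0.0409 and -0.0586 across transcripts, and those of arrays with unlike numbers at -0.318 to 0.273. Replicate 1 had the lowest median level over all transcripts in each of the 8 groups. Whether replicate numbers mark arrays handled together was not tested. With the replicate block, 6655 transcripts were called between the sexes, 62 between strains and 3309 between body and head. CG42488 and CG5116 lost the call (adjusted p = 0.0533), as did vnc between body and head (0.0545), and lmgA and lmgB gained one (0.0477).

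Some differences that were not called changed sign. With centring on the most common difference these were ND-MNLL (-0.17 log2), Ppcdc (-0.14), Tim10 (-0.15), PIG-M (-0.10), alpha-Spec (-0.042), CG16974 (-0.075), CG10570 and CG42502 (-0.18), His4r (-0.17), CG45088 and CG6191 (-0.068), Uba1 (-0.14) and CG45085 and CG8026 (-0.14). With array weights they were CG33995 and its co-listed genes (0.036) and CG42375 and CG9288 (0.041). With 1 array left out, values on both sides of 0 were seen for ND-MNLL (-0.0645 to 0.197), Dpm2 (-0.194 to 0.0139), CG33995 (-0.126 to 0.0084), Fatp1 (-0.0795 to 0.0771), CG10570 (-0.011 to 0.0989), sle (-0.161 to 0.134) and CG42375 (-0.206 to 0.0508). The fit to the compared groups alone was run for the sexes in w1118 bodies; for the other comparisons it is the fit to one tissue or strain. Values near the bottom and the top of the scale limit what differences can be seen.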
